A study of Mus musculus with 4 samples.

Results

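The genes described here are Atf4, which encodes the transcription factor of the integrated stress response, and 9 genes known as its targets or as markers of amino acid stress: Asns, Chac1, Trib3, Ddit3, Psat1, Phgdh, Sesn2, Shmt2 and Mthfd2. They were chosen by name, with earlier results of these data known. Each of the 10 was found among the 54532 genes of the deposited count table and passed the filter that kept 13715 of them. Peritoneal macrophages of WT BALB/c mice, elicited with thioglycollate, were cultured in 4 conditions, each sequenced as 1 library. Each medium, normal medium or 30% 4T1-CM, was combined with DMSO or with 10 µM CH223191. Where 4 values are listed for a gene, their order is normal medium with vehicle, normal medium with antagonist, 4T1-CM with vehicle and 4T1-CM with antagonist. DMSO is the vehicle, CH223191 is an antagonist of the aryl hydrocarbon receptor AHR, and 4T1-CM is medium conditioned by 4T1, a metastatic mouse mammary carcinoma line of the same strain. The antagonist or DMSO was added 2 h before the medium was changed and stayed in it, while the time the cells then spent in that medium and the number of mice behind a library are not given in the sources used here. With 1 library per condition the spread between cultures was not measured.

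When cells run short of an amino acid, or when unfolded protein, heme loss or viral RNA is sensed, kinases phosphorylate the translation factor eIF2. General protein synthesis then drops while the Atf4 mRNA is translated better, so that the amount of this transcript by itself does not report the amount of ATF4 protein. ATF4 pairs with C/EBP and other bZIP proteins and raises genes of amino acid synthesis and import, tRNA charging and the one-carbon cycle, and under lasting stress also those of cell death such as Ddit3. In macrophages this pathway is known to be engaged by inflammatory stimuli and by serine and arginine supply.

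The bases that ATF4 and C/EBP proteins are known to bind together, the C/EBP-ATF response element, share the core TGATGNAA. It was searched on both strands of the RefSeq promoters of GRCm38.p6, from 250 bases before to 50 after the start of each gene, and all 10 genes matched the table by symbol. The core occurred in the promoters of 3 of the 10 genes, Asns, Chac1 and Trib3, and in 3.97% of all 32851 promoters of that length. The cAMP response element TGACGTCA, which related bZIP factors bind, occurred in 0 of the 10 and in 1.79% of all. The 3 sites are printed here because they are the only stretches in these windows that carry the known recognition core. Each is read 5′ to 3′ on the strand where the core reads forward, with the core in capitals.

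Asns, chr6:7693214-7693243, minus strand: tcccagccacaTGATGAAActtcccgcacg

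Chac1, chr2:119351038-119351067, minus strand: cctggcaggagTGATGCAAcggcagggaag

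Trib3, chr2:152344028-152344057, plus strand: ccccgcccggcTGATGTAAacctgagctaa

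In Asns the core lay 23 to 16 bases before the RefSeq start, and since the GENCODE M21 annotation begins the gene 45 bases further upstream, it also fell in the first annotated exon there. In Chac1 it lay 193 to 186 bases before the start. In Trib3 it lay 15 to 22 bases after the RefSeq start and 7 bases before the start that GENCODE gives. For the other 7 genes the letters were not found in this window, which says nothing about sites elsewhere. Of the 3 genes that carried the core, Asns was called higher in 4T1-CM by edgeR's test described below, beside 16.4% of all genes. DESeq2 did not call it, and Trib3 and Chac1 passed neither test. Whether the core bears on the response was not tested.

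The libraries held 15535405 to 17557127 counted reads and detected 17395 to 18665 genes. CPM are counts scaled to library totals with the TMM method, and TPM are additionally divided by the gene length of the table, so that only TPM were used to compare genes with each other. The 6 macrophage markers were above 0 in every library, with summed levels of 14012 to 39955 CPM. Of the 5 fibroblast markers 4 were kept, and their summed levels were 57.3, 27.0, 145 and 123 CPM. Of the 5 epithelial markers Krt19 had 0 reads in every library, Krt8, Krt18 and Epcam were below the filter, and the list summed to 0.439 to 1.35 CPM. The 6 B and T cell markers summed to 0.251 to 0.616 CPM. Among 9 neutrophil markers S100a9, Ly6g and Retnlg had 0 reads, and the list summed to 67.6 to 242 CPM.

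Between the media the 10 genes went in different directions. Sesn2 and Asns rose with 4T1-CM, Ddit3, Shmt2 and Psat1 fell, and the transcript of Atf4 itself was nearly level. Added up, the 10 genes held 448 and 446 CPM in normal medium against 442 and 420 CPM in 4T1-CM. The largest difference belonged to Ddit3, which was 2.62-fold lower in 4T1-CM with DMSO and 2.54-fold lower with CH223191. CH223191 changed none of the 10 genes by 2-fold in either medium.

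These directions come from a single additive fit over the 4 libraries, edgeR's quasi-likelihood test with medium and inhibitor as terms and Benjamini-Hochberg adjustment over all 13715 genes. Of the 10 genes 2 rose and 3 fell with 4T1-CM, beside 16.4% of all genes tested that rose and 16.2% that fell. In that fit the libraries with DMSO and with CH223191 stand in for replicates of a medium, and 1 residual degree of freedom is left. With the Wald test of DESeq2 in the same design, Sesn2 was called higher, beside 8.79% of all genes, and Ddit3 lower, beside 9.03%. Asns, Shmt2 and Psat1 had the same direction as in edgeR's fit without passing. Ratios between 2 libraries carry a 95% exact Clopper-Pearson interval that covers counting error only and compares the libraries, not the conditions.

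**Figure D1:**
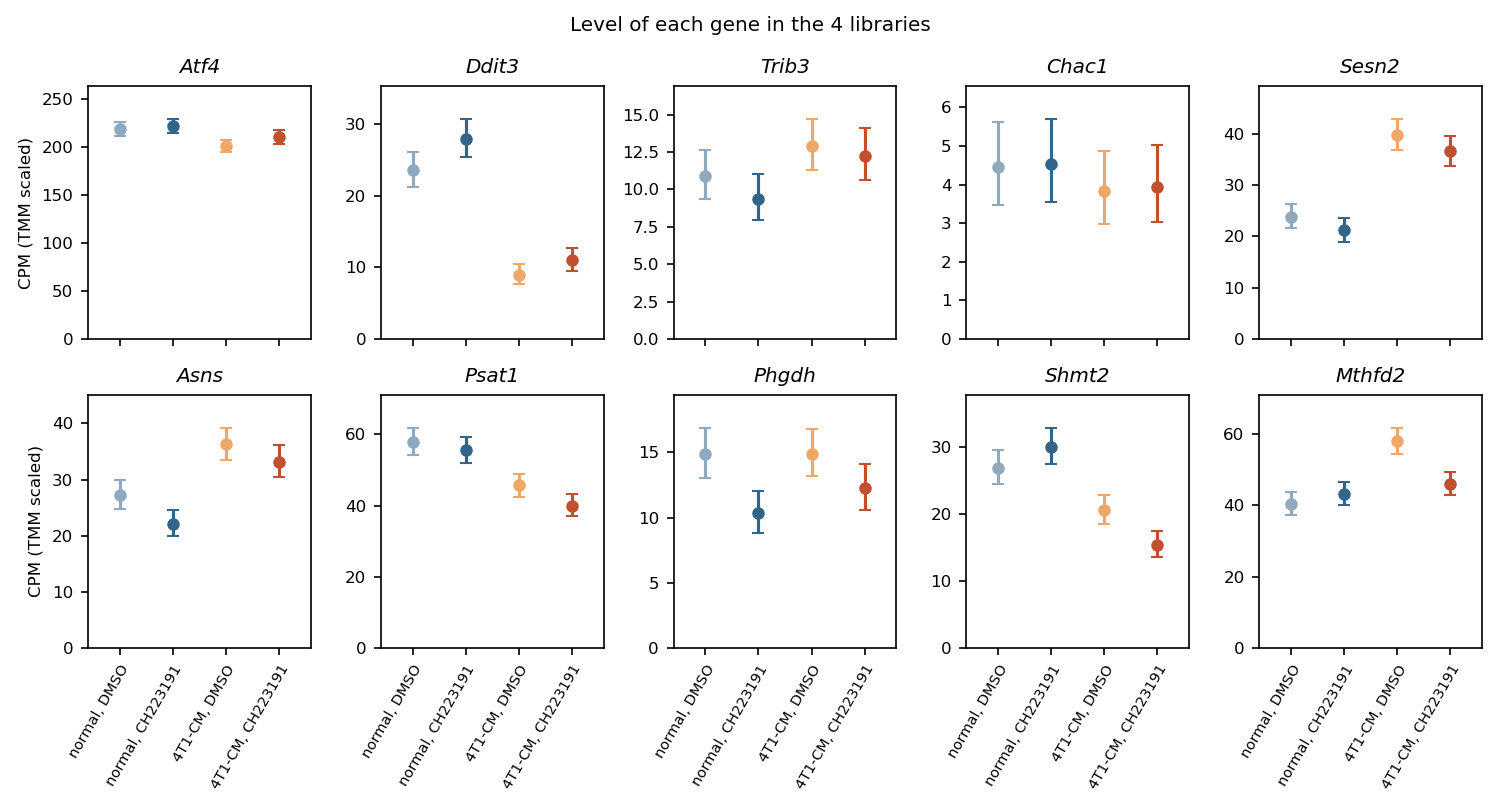
Level of each of the 10 genes in each library, in CPM on a linear axis that starts at 0 (1 library per point, bars are exact 95% Poisson counting intervals). Ddit3 dropped from 23.6 and 27.98 CPM in normal medium to 8.97 and 11.02 in 4T1-CM, Sesn2 was at 23.9 and 21.2 against 39.9 and 36.6, and Atf4 stayed between 201 and 221.

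Atf4 (ENSMUSG00000042406, chr15:80255184-80257541, plus strand, coordinates of GRCm38 as in the deposited table) had 3478, 3522, 3514 and 3408 reads. This amounted to 218, 221, 201 and 210 CPM, so both 4T1-CM libraries lay slightly below both libraries of normal medium. The log2 ratio of 4T1-CM to normal medium was -0.12 with DMSO (95% interval -0.19 to -0.05) and -0.08 with CH223191 (-0.15 to -0.0098). Both intervals lay just below 0 in counting error, but Atf4 did not pass the test in the additive fit (log2 fold change -0.10, adjusted p = 0.576). Atf4 held 45.4% to 49.9% of the reads of all 10 genes.

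Ddit3, which encodes CHOP, a bZIP partner of ATF4 that promotes cell death under lasting stress, lies on the plus strand at chr10:127290774-127296288 (ENSMUSG00000025408). Normal medium gave 376 reads under vehicle and 445 under the antagonist, against 157 and 179 in 4T1-CM. Both 4T1-CM libraries lay below both of normal medium, as they also did in CPM for Atf4 and Chac1, which did not pass the test. How often this order occurs over all genes was not counted. The log2 ratio of Ddit3 was -1.39 with DMSO (-1.67 to -1.12) and -1.34 with CH223191 (-1.60 to -1.09). In the additive fit Ddit3 fell by 1.37 (adjusted p = 9.63e-05). It was the 1 gene of the 10 at least 2-fold lower in each of the pairs, beside 6.11% of all genes with DMSO and 7.86% with CH223191, and 0 of the 10 were at least 2-fold higher, beside 12.2% and 12.0%. The table holds a second, 105-base entry of the same symbol with 0 reads in every library. The gene shares 68 of its 1713 exon bases with Mars on the opposite strand, and whether strand was used in counting is not stated. Mars, the methionyl-tRNA synthetase, had 612, 609, 763 and 615 reads in the same order of libraries and so did not drop with Ddit3.

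Trib3 encodes a pseudokinase that is induced by ATF4 and CHOP and dampens ATF4 activity. On the minus strand at chr2:152337422-152344032, it had 174 and 149 reads in normal medium, under vehicle and antagonist, against 226 and 199 in 4T1-CM. Its log2 ratio was 0.24 with DMSO (-0.05 to 0.54) and 0.39 with CH223191 (0.07 to 0.70). Its additive fold change of 0.31 on the log2 scale did not pass the test (adjusted p = 0.192). Trib3, known to respond to CHOP, thus lay higher in both 4T1-CM libraries while Ddit3 lay lower, although only the latter was called.

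Chac1 encodes an enzyme that degrades glutathione and is often used as a marker of the arm from ATF4 to CHOP. It lies on the plus strand at chr2:119351229-119354381 and was the least abundant of the 10 genes, with 71, 72, 67 and 64 reads in the 4 libraries in the order used above. Its log2 ratio of -0.22 with DMSO had an interval from -0.72 to 0.28, and that of -0.20 with CH223191 from -0.71 to 0.31. Neither direction was therefore detectable at this depth (additive log2 fold change -0.21, adjusted p = 0.543).

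Sesn2 encodes sestrin 2, which senses leucine and restrains the growth kinase complex mTORC1. The gene, on the minus strand at chr4:132492032-132510501, had 381 and 337 reads in normal medium, under vehicle and antagonist, against 698 and 595 in 4T1-CM. Both 4T1-CM libraries were higher, by 1.67-fold with DMSO and by 1.73-fold with CH223191. The log2 ratios were 0.74 (0.56 to 0.92) and 0.79 (0.59 to 0.99), and the additive fit gave a rise of 0.76 (adjusted p = 0.00163), the largest rise among the 10 genes.

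Asns encodes asparagine synthetase, which makes asparagine from aspartate and glutamine and is a standard readout of ATF4 activity. At chr6:7675169-7693254 on the minus strand, it had 434 reads under vehicle and 352 under the antagonist in normal medium, against 635 and 539 in 4T1-CM. Both 4T1-CM libraries lay above both of normal medium, as they also did for Trib3, which did not pass the test. The log2 ratio of Asns was 0.41 with DMSO (0.24 to 0.59) and 0.58 with CH223191 (0.39 to 0.78). The additive fit of edgeR gave a rise of 0.50 (adjusted p = 0.0181), and by the Wald test of DESeq2 Asns did not pass (adjusted p = 0.133).

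The genes of serine synthesis, Phgdh and Psat1, encode the enzymes of its first steps from glycolysis, and Psat1 fell. Psat1, at chr19:15904678-15947337 on the minus strand, had 924 and 883 reads in normal medium, and 799 and 649 in 4T1-CM. Both 4T1-CM libraries were lower, with log2 ratios of -0.34 (-0.48 to -0.21) and -0.47 (-0.62 to -0.33). In the additive fit of edgeR Psat1 fell by 0.41 (adjusted p = 0.0287), and by the Wald test of DESeq2 it did not pass (adjusted p = 0.154). Phgdh, at chr3:98313170-98339990 on the minus strand, had 237 and 164 reads in normal medium and 261 and 199 in 4T1-CM. Here the media overlapped, with a log2 ratio of 0.00 with DMSO (-0.26 to 0.26), which turned to -0.04 when libraries were scaled by their totals, and of 0.25 with CH223191 (-0.06 to 0.56).

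The reads of Phgdh are uncertain, since 47.8% of its 50-base words also occur in transcripts of 23 other genes, and those could be split by the counting. The one that shares most, Gm7901, had 105, 66, 68 and 33 reads in the 4 libraries. Of the other genes Ddit3 shared 4.38% of its words, Shmt2 1.25%, Psat1 0.739%, and the remaining 6 shared 0. For Ddit3 this was 3.27% with the second entry of its own symbol and 1.11% with Mars.

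Shmt2 and Mthfd2 encode enzymes that act one after the other in mitochondria, where serine gives its side-chain carbon to folate and the folate is then oxidised. Shmt2, at chr10:127517123-127522444 on the minus strand, had 429 and 478 reads in normal medium, under vehicle and antagonist, and 361 and 250 in 4T1-CM. In the additive fit of edgeR it fell with 4T1-CM by 0.67 on the log2 scale (adjusted p = 0.0121). By the Wald test of DESeq2 Shmt2 did not pass (adjusted p = 0.0558). The fitted value averages 2 unequal log2 ratios, -0.38 with DMSO (-0.59 to -0.18) and -0.96 with CH223191 (-1.19 to -0.74). Mthfd2, at chr6:83305691-83325908 on the minus strand, had 644 and 688 reads in normal medium and 1017 and 748 in 4T1-CM. Its log2 ratio was 0.52 with DMSO (0.38 to 0.67) but 0.09 with CH223191 (-0.06 to 0.24), and the additive log2 fold change of 0.31 did not pass the test (adjusted p = 0.119).

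Within a library the level of Mthfd2 over that of Shmt2, both in TPM, was 1.34 and 1.28 in normal medium and 2.51 and 2.67 in 4T1-CM. The ratio was thus higher in both 4T1-CM libraries, and the difference was not tested. A ratio of this kind does not depend on how the libraries were scaled, and it shows unequal change rather than which of the genes moved.

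**Figure D2:**
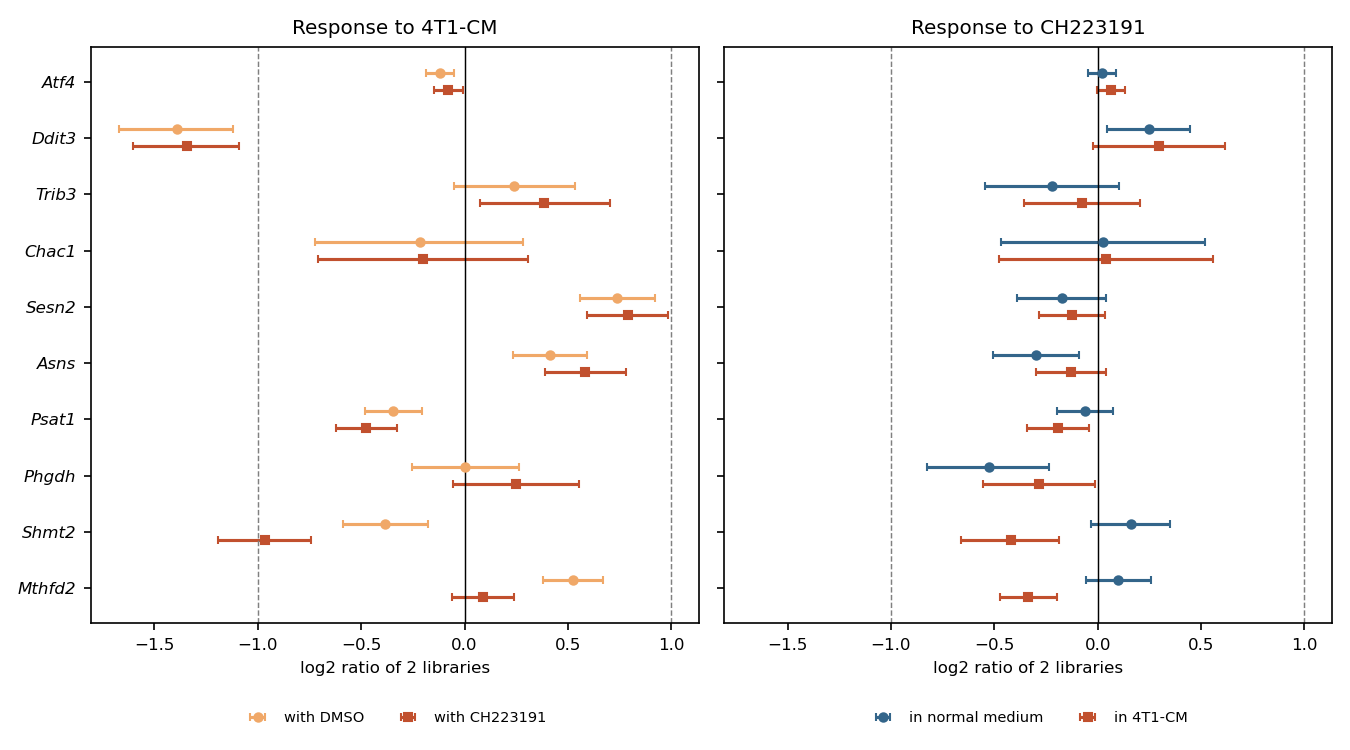
Log2 ratios of 2 libraries for each gene, with 95% counting intervals, for 4T1-CM against normal medium (left, with DMSO and with CH223191) and for CH223191 against DMSO (right, in either medium). Dashed lines mark 2-fold. Ddit3 alone lies beyond 2-fold, at -1.39 and -1.34, and all ratios for CH223191 lie between -0.53 and 0.30.

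The response to 4T1-CM was next compared between CH223191 and DMSO. The design crosses medium with inhibitor, and this difference asks whether the antagonist altered the response, but 1 library per condition leaves no spread to test it. For 8 of the 10 genes the counting interval of the difference covered 0, and it lay off 0 for 2, beside 34.8% of all genes. For Ddit3 the difference was 0.05 on the log2 scale (-0.32 to 0.42), for Sesn2 0.05 (-0.21 to 0.31) and for Asns 0.17 (-0.09 to 0.43). The exceptions were Shmt2, whose response was lower with CH223191 by 0.58 (difference -0.58, interval -0.88 to -0.28), and Mthfd2, with a difference of -0.43 (-0.64 to -0.23). None of the 10 genes reached a difference of 2-fold, which 11.2% of all genes did.

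**Figure D3:**
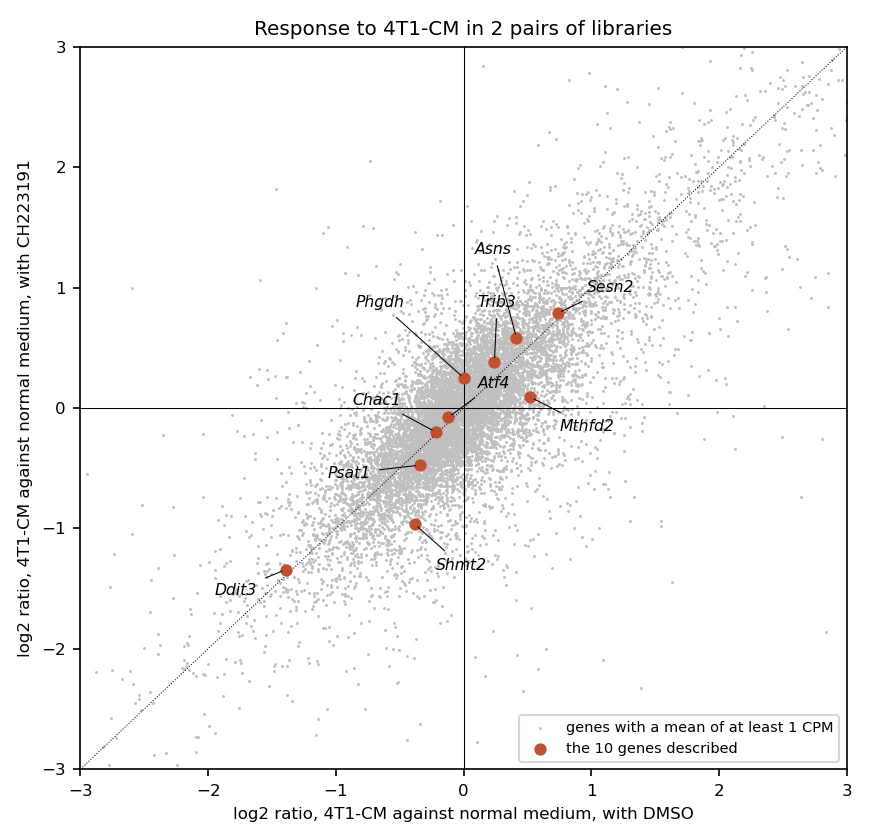
Log2 ratio of 4T1-CM to normal medium with DMSO (horizontal) and with CH223191 (vertical), for the 11943 genes whose mean level reached 1 CPM (grey, 218 of them beyond the axes) and the 10 genes described (red). Ddit3, Psat1, Sesn2 and Asns lie near the dotted line of equal response, and Shmt2 and Mthfd2 lie below it.

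CH223191 itself was compared with DMSO in each medium. In normal medium 0 of the 10 genes were at least 2-fold higher, beside 4.84% of all genes, and 0 were at least 2-fold lower, beside 3.31%. In 4T1-CM the counts were again 0 and 0, beside 2.75% and 2.66%. In the additive fit of edgeR 0 of the 10 were called higher, beside 0.0729% of all genes, and 0 lower, beside 0.00729%. At an unadjusted p under 0.05 edgeR's fit gave 1 of the 10, beside 880 of all 13715 genes. This was Phgdh, with a log2 fold change of -0.40 and an adjusted p of 0.762. The Wald test of DESeq2 called 0 of the 10 at either threshold, beside 14 of all genes at the adjusted and 202 at the unadjusted one. Over the alternatives the adjusted p of the 10 genes for CH223191 lay between 0.671 and 0.9999.

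The ratios for CH223191 were nevertheless not all within counting error. In normal medium the interval lay below 0 for Phgdh (-0.53, -0.82 to -0.23) and Asns (-0.30, -0.51 to -0.09) and above 0 for Ddit3 (0.25, 0.05 to 0.45). In 4T1-CM it lay below 0 for Shmt2 (-0.42, -0.66 to -0.19), Mthfd2 (-0.34, -0.47 to -0.20), Phgdh (-0.28, -0.56 to -0.01) and Psat1 (-0.19, -0.34 to -0.04). In normal medium the interval thus lay below 0 for 2 of the 10 genes, beside 19.9% of all genes, and above 0 for 1, beside 21.0%. In 4T1-CM it lay below 0 for 4 of the 10, beside 13.5% of all genes, and above 0 for 0, beside 13.3%. Phgdh was lower with CH223191 in both media, and its copy Gm7901 was lower as well, with 66 against 105 reads and 33 against 68. How much of this exceeds the spread between cultures was not tested.

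Transcripts used as markers of other cell types and of dividing cells also differed between the libraries. The sum of the fibroblast markers was 2.52-fold higher in 4T1-CM with DMSO and 4.55-fold higher with CH223191. Sesn2 and Asns were higher in the same libraries, while Ddit3, Shmt2 and Psat1 were lower. With CH223191 in normal medium the fibroblast sum was 0.472 of its level with DMSO. In that comparison Phgdh and Asns were lower too and Ddit3 was higher. In 4T1-CM the fibroblast sum with CH223191 was 0.852 of its level with DMSO. The macrophage markers were 2.67-fold and 2.19-fold higher in sum, and 2.10-fold and 1.44-fold without Lyz2, which holds most of it. The neutrophil markers were 3.58-fold and 2.42-fold higher in sum. Without Mmp8, a collagenase with 35, 21, 2142 and 759 reads, they were 1.82-fold and 1.83-fold higher. Cxcr2, a chemokine receptor of neutrophils, had 12, 9, 2 and 0 reads and went the other way. S100a9, Ly6g and Retnlg had 0 reads in every library. The 10 cell cycle genes summed to 622 and 647 CPM in normal medium and to 365 and 303 in 4T1-CM, largely through Pcna, the replication clamp, at 392, 430, 165 and 150 CPM. Without Pcna the sums were 230 and 218 against 200.2 and 153 CPM. Between the media 9 of the 10 were lower in 4T1-CM with DMSO and 10 with CH223191. The exception was Mki67, a marker of cycling cells, at 39.2, 45.9, 54.5 and 42.2 CPM. For 4T1-CM edgeR called 6 of the 10 lower, beside 16.2% of all genes, and DESeq2 4, beside 9.03%, and both called 0 higher. All 10 cell cycle genes were lower with CH223191 than with DMSO in 4T1-CM (median log2 ratio -0.36), where Shmt2 and Mthfd2 were lower too. Their part in the results was not tested. In these bulk samples fewer cells of a type and less RNA per cell cannot be told apart.

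The order of the genes by TPM changed between the media, and Ddit3 moved furthest. Sesn2 moved from rank 7 to 4 with DMSO and with CH223191, and Shmt2 from 5 to 8 with CH223191. Atf4 was first in every library at 237 to 291 TPM and Chac1 last at 6.52 to 8.54. Ddit3 was second in both normal medium libraries, at 43.2 and 46.4 TPM, and ranked 9 in 4T1-CM with DMSO at 14.6 TPM and 6 with CH223191 at 17.7 TPM. Rank 9 rests on small gaps, since Trib3 and Phgdh lay close above at 16.9 and 16.7 TPM in that library. In normal medium with DMSO Ddit3 lay next to Psat1 at 42.8 TPM, a gap within counting error. In 4T1-CM Mthfd2 took second place at 46.5 and 36.3 TPM. Relative to Ddit3 the level of Asns was 0.723 and 0.495 in normal medium and 2.53 and 1.89 in 4T1-CM, and that of Sesn2 0.50 and 0.373 against 2.19 and 1.64. In normal medium the transcript of CHOP was therefore more abundant than those of asparagine synthetase and sestrin 2, and in 4T1-CM less abundant.

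The median of the 10 centred log2 profiles was nearly flat, at 0.07, -0.02, 0.06 and -0.05 over the 4 libraries. Among 8314 other genes whose mean level reached 10 CPM, those closest to it were Nckipsd, Pptc7, Prune2, Zzef1 and Gtf2h1, at Euclidean distances of 0.0289 to 0.0337 on the log2 scale. With 4 libraries many flat genes lie close to a flat profile, so this describes the average of the 10 genes and no member of it.

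Other genes of the pathway were followed as lists. Of the 7 genes for eIF2 kinases, eIF2 alpha and its phosphatase subunits, 2 rose with 4T1-CM and 0 fell (median log2 ratio 0.01 with DMSO and 0.16 with CH223191, beside 0.01 and 0.02 over all genes). They were Eif2ak2, the kinase PKR that senses double-stranded RNA, with 555, 585, 1025 and 929 reads (adjusted p = 0.00192), and Eif2ak4, the kinase GCN2 that senses uncharged tRNA, with 298, 321, 556 and 494 reads (adjusted p = 0.00472). Eif2ak3, the kinase PERK of the endoplasmic reticulum, had log2 ratios of -0.31 and -0.11 and did not pass the test (adjusted p = 0.236).

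Of 15 genes for ATF4-related bZIP factors and stress targets 14 were kept, of which 6 rose and 2 fell (median 0.34 and 0.39). Those that rose were Cebpb, which encodes a partner of ATF4 (log2 fold change 1.13, adjusted p = 0.00464), Ddit4, Nupr1, Vldlr, Klhl24 and Stc2. By the Wald test of DESeq2 only Ddit4 and Klhl24 of these 6 passed, with adjusted p = 0.179 for Cebpb, 0.235 for Nupr1, 0.155 for Vldlr and 0.0663 for Stc2. Vldlr, with 8, 7, 28 and 32 reads, and Stc2 passed the filter only through the 4T1-CM libraries. The count of rises thus holds genes that were kept for being high there. Cebpb had 3639, 1777, 5653 and 6208 reads, so its log2 ratio was 0.50 with DMSO and 1.77 with CH223191. The lowest of its 4 libraries was normal medium with the antagonist, which lay at a log2 ratio of -1.03 to its DMSO control. Ddit4, an inhibitor of mTORC1 like Sesn2, had 30, 36, 117 and 113 reads (adjusted p = 0.000513). Stc2, a secreted glycoprotein induced under stress, rested on 2, 0, 15 and 18 reads, a ratio of 6.83 with DMSO (1.59 to 61.5) and at least 5.87-fold higher with CH223191 against the floor of 3 reads per library. The median of the list was the same with that bound in place.

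The 2 genes of this list that fell were Atf3 and Gadd45a. Atf3, a bZIP factor induced by ATF4, had 12939 and 13322 reads in normal medium and 8539 and 8056 in 4T1-CM (log2 fold change -0.75, adjusted p = 0.000982). Gadd45a, a gene of growth arrest and DNA damage, had 456 and 433 against 241 and 264 reads (log2 ratios -1.05 and -0.74, adjusted p = 0.00146). Both were thus lower in 4T1-CM, as Ddit3 was, and both also passed by DESeq2.

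Of 10 amino acid transporters 8 were kept, with 2 that rose and 2 that fell (median -0.09 and -0.19). Slc7a11, the cystine and glutamate exchanger, had 344 and 248 reads in normal medium and 3853 and 3042 in 4T1-CM, the largest rise in these pathway lists among genes with more than 3 reads in every library (log2 ratios 3.35 and 3.58, adjusted p = 4.86e-08). Slc6a9, a glycine transporter, had 1, 2, 24 and 13 reads, a ratio of 21.9 (3.56 to 899) with DMSO and 6.36 (1.44 to 58.1) with CH223191, and did not pass by DESeq2 (adjusted p = 0.0776). It passed the filter only through the 4T1-CM libraries, so that it was counted among the rises because it was high there. Slc3a2, which encodes the heavy chain that Slc7a11 needs, fell (log2 ratios -0.52 and -0.51, adjusted p = 0.00946), and so did Slc1a5, a glutamine transporter (log2 fold change -0.58, adjusted p = 0.00866).

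Of the 13 cytosolic tRNA synthetases 0 rose, also at an unadjusted p under 0.05 and by DESeq2. By edgeR's test 1 fell, with 4 lower at an unadjusted p under 0.05, and by DESeq2 0 fell at either threshold. Under that unadjusted threshold for 4T1-CM lay 5956 of all 13715 genes by edgeR and 3796 by DESeq2, in either direction. The synthetase that fell was Vars (log2 fold change -0.37, adjusted p = 0.0482, and 0.237 by DESeq2), and Aars had log2 ratios of -0.29 and -0.29 (adjusted p = 0.0988). The median log2 ratio of the list was -0.14 with DMSO, with 10 of 13 below 0, and -0.11 with CH223191, with 12 of 13 below 0. Of 12 further enzymes of serine, one-carbon and amino acid metabolism 10 were kept, 2 rose and 1 fell (median 0.22 and 0.19). Mthfd1l, which acts after Mthfd2 in the mitochondrial folate pathway, had 261 and 256 reads in normal medium and 578 and 528 in 4T1-CM (log2 ratios 1.01 and 1.01, adjusted p = 0.000396). Aldh1l2, the mitochondrial enzyme that takes the carbon to carbon dioxide, had 5, 4, 29 and 19 reads (adjusted p = 0.0148), and Mthfd1, the cytosolic counterpart, fell (-0.24 and -0.57, adjusted p = 0.0486). By DESeq2 Mthfd1l alone of these passed, with adjusted p = 0.137 for Aldh1l2 and 0.235 for Mthfd1. Aldh1l2 passed the filter only through the 4T1-CM libraries.

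Chaperones of the endoplasmic reticulum, known targets of the ATF6 and XBP1 arms rather than of ATF4, were mostly lower in 4T1-CM, and 6 of 13 fell while 0 rose (median -0.32 and -0.22). Hspa5, the main luminal chaperone BiP, had 14442 and 13337 reads in normal medium and 8737 and 7354 in 4T1-CM (log2 fold change -0.87, adjusted p = 0.000343). Sdf2l1, a co-chaperone of BiP, had the largest fall, with log2 ratios of -1.24 and -1.68 (adjusted p = 2.74e-05). Dnajb9, another co-chaperone of BiP, had log2 ratios of 0.32 and 0.23 and did not pass the test (adjusted p = 0.121). Over all 6 lists, with 65 genes kept, 12 rose and 12 fell with 4T1-CM by edgeR's test, 18.5% in each direction beside the 16.4% and 16.2% of all genes. The rises include Stc2, Vldlr, Slc6a9 and Aldh1l2, which passed the filter only through the 4T1-CM libraries and were not called by DESeq2. By DESeq2 the counts were 6 and 10, or 9.23% and 15.4%, beside 8.79% and 9.03% of all genes. For CH223191 edgeR called 0 of the 65, with 5 at an unadjusted p under 0.05, and DESeq2 called 0 at either threshold. Of all 13715 genes 880 lay under that unadjusted threshold by edgeR and 202 by DESeq2.

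**Figure D4:**
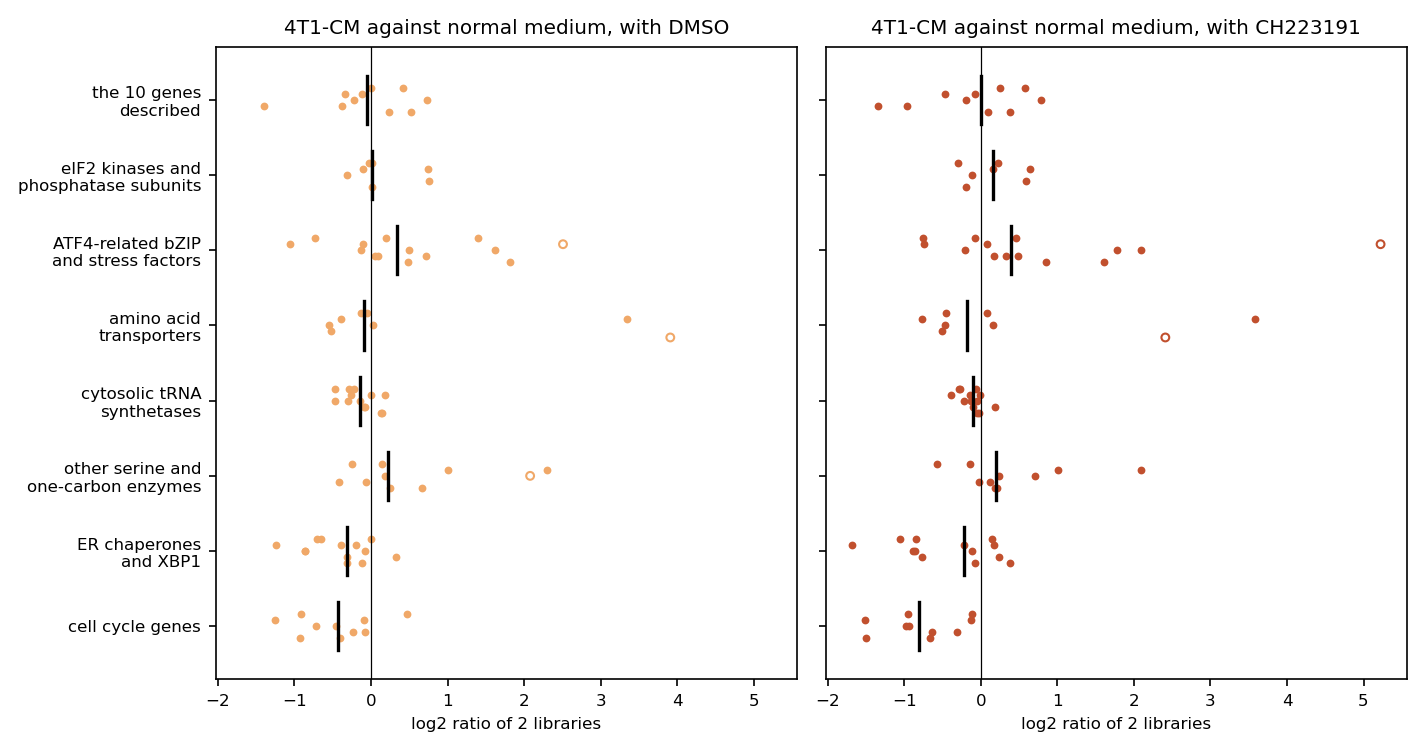
Log2 ratio of 4T1-CM to normal medium for the kept genes of each list, with DMSO (left) and with CH223191 (right), 1 point per gene, open where a library of the pair had 3 reads or fewer, and a bar at the median. The open point at 5.22 is Stc2, which had 0 reads in normal medium with the antagonist, so that its fitted value depends on the prior count. The 10 genes described have medians of -0.06 and 0.01, the endoplasmic reticulum chaperones -0.32 and -0.22 and the cell cycle genes -0.43 and -0.80.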

How the data were processed

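Total RNA of 4 cultures was sequenced from NEBNext Ultra libraries. The table deposited by the authors gives raw counts, as whole numbers of reads for each gene. HISAT2 2.0.5 is named in the submitters' processing notes. Counting with featureCounts is described in the study's methods for alveolar macrophages, and strand use is not given in the sources used here. Gene coordinates equal GENCODE M21 (GRCm38) for 53585 of 54495 shared genes.

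Genes that reached 10 reads in any library were kept, and libraries were scaled with TMM of edgeR 4.0.16 in R 4.3.3. Log2 ratios used a prior count of 0.5, and a fold of 2 counted as a change. A count of 3 reads, the most that a count of 0 allows, equalled 0.171 to 0.189 CPM. The additive quasi-likelihood fit used an adjusted p threshold of 0.05. Alternatives were size factors and the Wald test of DESeq2 1.42.0, total counts, a prior count of 5, other filters, protein-coding genes and a fit without the other factor. On simulated counts of 13715 genes with a 4T1-CM effect, all 100 genes at 4-fold and all 100 at 8-fold were recovered, with 3 unchanged genes called by adjusted p and 27 of the 10217 unchanged genes with a mean of 50 reads or more past 2-fold in the DMSO pair. Smaller changes, such as all 5 of those called among the members, were not simulated. The simulated counts had a spread set by hand, the same for every gene, and no effect of CH223191. They therefore give no error rate for the real libraries, whose spread between cultures was not measured.

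The members and lists were chosen with earlier results of these data known. All 10 members were named. Of each pathway list the genes with the largest rise and fall were named, ranked by the smaller absolute log2 ratio of the 2 comparisons of 4T1-CM with normal medium (same sign in both, at least 30 reads over the libraries), and further genes after their values were seen.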

Additional observations from a re-analysis of the deposited data

Results flagged for a closer look

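The ratio of CH223191 to DMSO had opposite signs in the media for Shmt2, at 0.16 in normal medium and -0.42 in 4T1-CM on the log2 scale, and for Mthfd2, at 0.10 and -0.34. For both genes the counting interval of the difference between the media did not cover 0, while in normal medium the interval of the ratio alone did. The difference was not tested, since each condition has 1 library. The cell cycle genes had median log2 ratios of 0.02 and -0.36 in the same comparisons, and their part in the result was not tested.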

How the results depend on the processing

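The count of the 10 genes called for 4T1-CM was 5 with edgeR and 2 with the Wald test of DESeq2, where Ddit3 and Sesn2 remained and Asns (log2 fold change 0.49), Psat1 (-0.41) and Shmt2 (-0.68) had the same direction without passing. Over 5 alternatives the adjusted p of Ddit3 ranged from 7.19e-14 to 0.000793, of Sesn2 from 1.30e-05 to 0.00802, of Shmt2 from 0.000191 to 0.0558, of Asns from 0.0101 to 0.133 and of Psat1 from 0.0116 to 0.154. Over all genes edgeR called 4476 for 4T1-CM and DESeq2 2443. For CH223191 edgeR called 11, DESeq2 called 14, edgeR without a filter called 193, and edgeR with the size factors of DESeq2 or without the medium term called 0. The other 36 alternatives of the counts of members kept their values within 1.5 times, and 0 results past 2-fold or the adjusted p threshold changed sign. With scaling by total counts the median of all genes dropped by 0.0544 at most on the log2 scale, which turned the sign of values near 0 for Phgdh with 4T1-CM and DMSO, and for Atf4 (-0.04 to 0.02) and Chac1 (-0.03 to 0.02) with CH223191 in normal medium. No paired analysis was possible by replicate number because each condition has 1 library, so leaving out a replicate was not possible either. The additive fit compares the media with the inhibitor as a term, and the fit without that term also called 5 of the 10 genes for 4T1-CM. Depth limits Chac1 most, with 64 to 72 reads.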
